A study of Mus musculus with 6 samples.

Results

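The 36 genes described here carry glucose from the cell surface to lactate or to the entry of pyruvate into the mitochondrion, with enzymes of the pentose phosphate branch. They were chosen by symbol from the 18051 genes of the expression table and comprise glucose and lactate transporters, the isozymes of each glycolytic step, 2 subunits of pyruvate dehydrogenase with the 4 kinases that restrain it, and 4 pentose phosphate enzymes. RNA-seq was performed on 6 mouse libraries labelled as hematopoietic stem cells: 3 from cells with a Cas9 knockout of S100A8 (knockout) and 3 from cells with the vector alone (control). S100A8 is a calcium-binding protein abundant in neutrophils, examined in the study as a target of the licorice compound glycyrrhizic acid. The study's methods describe guides cloned in the Lenti-CRISPR v2 vector and puromycin selection of infected cells, and its text places a CRISPR experiment on S100A8 in mouse embryonic fibroblasts (MEFs) to which glycyrrhizic acid was added. The labels name no guide, clone, strain, age or compound, so whether the compound was present in either group is not known from them. Nothing in the labels says that the replicates were separate cultures, so the p-values reflect how much these libraries differ within a group, a spread that may be technical only.

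Glucose enters most cells through carriers of the Slc2a (GLUT) family, is trapped by hexokinase and is cut into triose phosphates that glycolytic enzymes convert to pyruvate with a gain of ATP. Pyruvate is either reduced to lactate by lactate dehydrogenase and exported by monocarboxylate carriers, or passed to the citric acid cycle by pyruvate dehydrogenase, which pyruvate dehydrogenase kinases switch off. Hematopoietic stem cells and proliferating fibroblasts are both known for active glycolysis, and many of these genes are textbook targets of hypoxia-inducible factor and of Myc.

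S100a8 was listed at 0 in all 3 knockout libraries, against 3.67, 1.61 and 3.95 FPKM (fragments per kilobase of transcript, relative to the fragments mapped in that library) in the control libraries, and fell by 1.97 on the log2(FPKM + 1) scale (limma adjusted p = 1.98e-04, exact permutation p = 0.10, the smallest possible). As the knockout values are 0, the size of this difference depends on the pseudocount, at -2.76 with 0.5 and -4.89 with 0.1. The marker genes did not match the label. Of 12 fibroblast markers, 10 had a mean of at least 10 FPKM. The 12 summed to 6948 to 7924 FPKM in knockout and 5360 to 5466 FPKM in control. They did not move as one: the mean of Dcn was 4.73 FPKM in knockout and 67.2 FPKM in control. Thy1 was listed at 0 in every control library, against 3.70 to 4.18 FPKM in knockout, and Lum stood at 0.07 FPKM or less throughout. Of 24 blood markers in the table, Cd34 and Gata2 alone reached a mean of 10 FPKM. Kit and Ptprc were listed at 0 in every library, and the 24 summed to 58.8 to 59.2 FPKM in knockout and 101 to 103 FPKM in control. The cells are therefore called knockout and control cells here, with no cell type. Levels summed to 467255 to 538504 FPKM per library and read counts were not given, so the depth is unknown. Knockout replicate 2 had the highest sum and correlated across genes at 0.986 and 0.990 with the other knockout libraries, which correlated with each other at 0.998.

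Most of the pathway was lower in knockout cells. Of the 36 genes, 32 had a mean of at least 1 FPKM and were tested, and 22 fell, 6 rose and 4 did not pass the threshold (limma on log2(FPKM + 1), Benjamini-Hochberg adjusted p under 0.05 over 11112 genes). Over all tested genes, 26.7% fell and 23.6% rose, or 50.2% in either direction. The median difference, knockout minus control, was -0.65 over the 32 genes and -0.02 over all tested genes. A fall of more than 1 on the log2 scale was found for 9 of the 32, against 5.07% of all tested genes, and a rise of more than 1 for Pdk4 alone, against 3.03%. In 31 of the 32, all but the pentose phosphate enzyme Pgd, the 3 knockout values did not overlap the 3 control values, which also held for 60.7% of all tested genes. These log2 differences understate the change of genes at low levels. As these are bulk libraries, a smaller number of cells of one kind and less RNA per cell cannot be told apart.

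Of the 22 falls, 18 lay between glucose uptake and lactate export, and the others were Pdk1, Pdk3, G6pdx and Taldo1. Of the 6 rises, 4 lay where pyruvate is handled and 2 among the PFKFB enzymes that regulate phosphofructokinase. Of the 18 genes from glucose transport to pyruvate kinase, the PFKFB enzymes left out, 15 were tested, of which 14 fell, none rose and Pkm did not pass. Of the 10 genes of lactate and pyruvate handling, 9 were tested, of which 4 fell, 4 rose and Pdha1 did not pass. The 36 genes together made up 1.55%, 1.62% and 1.59% of the summed FPKM in knockout libraries, against 2.46%, 2.56% and 2.44% in control libraries. Without knockout replicate 2, 29 of the 32 passed (23 lower, 6 higher), the added one being Pkm. The plot of differences by gene shows the pattern along the pathway.

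**Figure D1:**
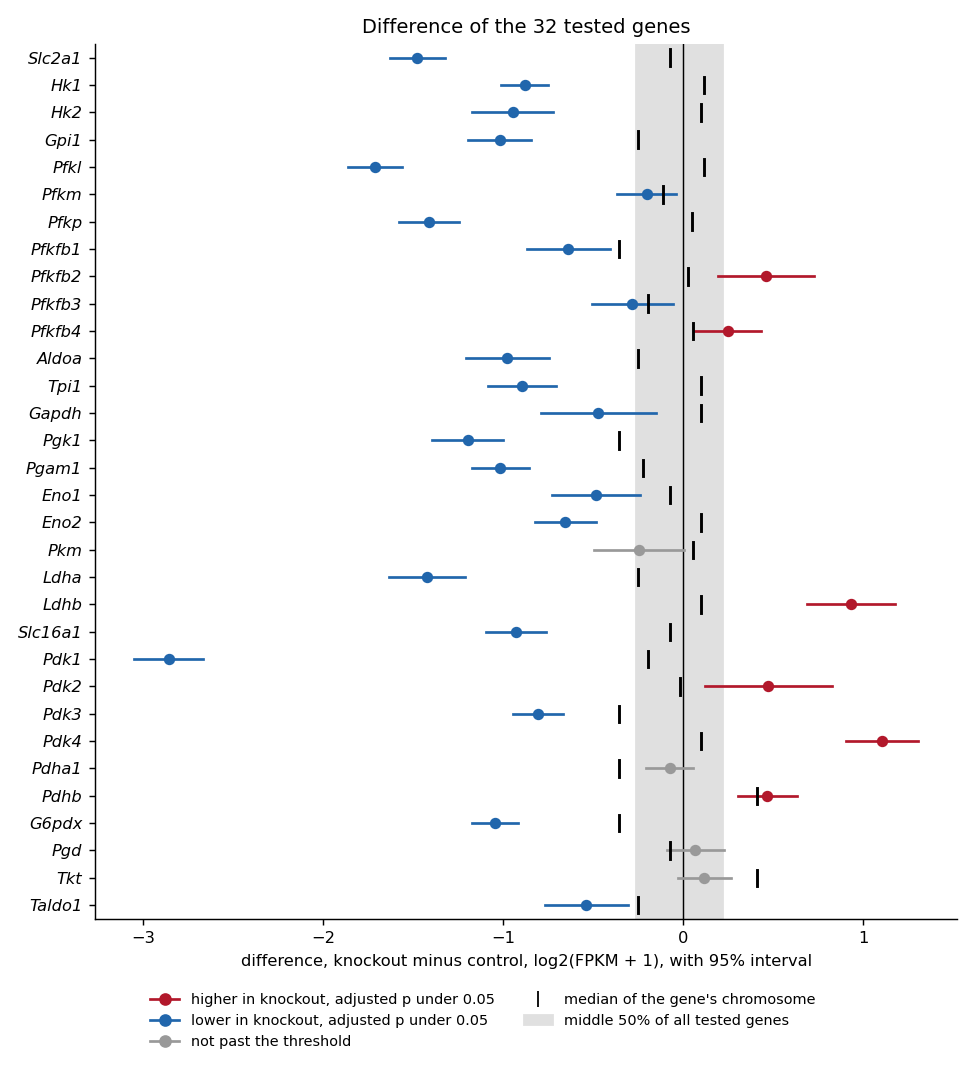
Difference between knockout and control for the 32 tested genes, in pathway order, on the log2(FPKM + 1) scale. Points are limma estimates with 95% intervals, black ticks are the median difference of each gene's chromosome, and the grey band holds the middle 50% of all tested genes. Pdk1, at -2.86, lies furthest to the left, and Pdk4 and Ldhb, at 1.11 and 0.93, lie furthest to the right.

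The promoters of the 4 genes that fell furthest (Slc2a1, Pfkl, Ldha and Pdk1) and of the 2 that rose furthest (Ldhb and Pdk4) are shown because hypoxia-inducible factor and Myc are the best-known regulators of this pathway. Each run holds the 250 bases before a RefSeq transcript start in GRCm38.p6, read 5′ to 3′ on the gene's strand. Slc2a1 (gene ID 20525) is read at chr4:119108495-119108744 on the plus strand, Pfkl (18641) at chr10:78009808-78010057 on the minus strand, and Ldha (16828) at chr7:46845554-46845803 on the plus strand. Pdk1 (228026) is read at chr2:71872974-71873223 on the plus strand, Ldhb (16832) at chr6:142507958-142508207 on the minus strand and Pdk4 (27273) at chr6:5496279-5496528 on the minus strand. Capitals mark ACGTG or GCGTG on either strand, the core letters of the hypoxia response element, where ACGTG also lies within the E-box CACGTG.
Slc2a1: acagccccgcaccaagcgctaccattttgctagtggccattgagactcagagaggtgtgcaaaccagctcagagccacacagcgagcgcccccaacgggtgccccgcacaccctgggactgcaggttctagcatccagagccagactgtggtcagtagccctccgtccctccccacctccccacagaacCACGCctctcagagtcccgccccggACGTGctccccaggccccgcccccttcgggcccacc
Pfkl: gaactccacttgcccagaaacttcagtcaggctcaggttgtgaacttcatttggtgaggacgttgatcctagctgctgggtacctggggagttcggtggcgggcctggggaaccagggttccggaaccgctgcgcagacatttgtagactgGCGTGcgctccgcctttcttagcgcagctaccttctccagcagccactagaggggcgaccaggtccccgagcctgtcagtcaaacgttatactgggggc
Ldha: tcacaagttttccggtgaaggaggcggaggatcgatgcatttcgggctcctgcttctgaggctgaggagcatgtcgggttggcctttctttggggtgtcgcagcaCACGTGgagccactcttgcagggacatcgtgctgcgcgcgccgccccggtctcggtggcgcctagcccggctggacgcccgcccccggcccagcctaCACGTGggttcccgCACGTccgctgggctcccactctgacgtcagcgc
Pdk1: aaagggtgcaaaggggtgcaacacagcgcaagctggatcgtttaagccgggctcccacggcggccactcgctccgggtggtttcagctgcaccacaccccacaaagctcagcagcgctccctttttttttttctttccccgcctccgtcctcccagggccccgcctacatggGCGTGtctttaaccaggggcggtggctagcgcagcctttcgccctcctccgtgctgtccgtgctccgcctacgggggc
Ldhb: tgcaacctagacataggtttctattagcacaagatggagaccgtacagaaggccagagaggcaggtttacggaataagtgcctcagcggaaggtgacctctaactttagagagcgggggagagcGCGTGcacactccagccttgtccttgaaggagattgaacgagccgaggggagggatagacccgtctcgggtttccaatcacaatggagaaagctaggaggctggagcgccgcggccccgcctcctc
Pdk4: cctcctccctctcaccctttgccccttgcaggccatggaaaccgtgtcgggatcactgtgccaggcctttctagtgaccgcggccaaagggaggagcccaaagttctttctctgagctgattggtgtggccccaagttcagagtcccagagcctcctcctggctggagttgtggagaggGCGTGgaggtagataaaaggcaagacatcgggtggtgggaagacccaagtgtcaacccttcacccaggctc

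Of the 36 genes, 34 were matched in the RefSeq promoter table, and Slc2a3 and Slc2a4 were not. The Ldha window held 5 matches, at 145, 144, 48, 47 and 34 bases before the start, and 2 of its stretches spelled CACGTG, which reads ACGTG on both strands. In Slc2a1 the matches began 61 and 36 bases before the start. Pfkl, Pdk1, Ldhb and Pdk4 each held 1 GCGTG, at 99, 78, 126 and 71 bases before the start in that order. Ldha and Pdk1 each had another window, not shown, with 1 match for Ldha and 0 for Pdk1. ACGTG or GCGTG was present in 41 of the 54 windows of the 34 genes (75.9%), against 57.2% of the windows of tested genes and 38.6% of all 32851 windows of the table. By gene, it was present in at least 1 window of 19 of the 22 that fell (86.4%) and of all 6 that rose, against 63.4% of tested genes. A gene with more windows has more chances of a match, and the sets differed in this. The 22 had 36 windows and the 6 had 9, against 11323 for the 8838 tested genes matched. CACGTG was present in 11.1% of the 54 windows, against 8.56% of the windows of tested genes and 6.02% of all windows. The letters thus stood before genes of both directions, and a match describes the sequence and is no evidence of binding.

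Of the 3 glucose transporter genes among the 36, Slc2a1 was by far the highest. Slc2a1, which encodes the widely expressed carrier GLUT1, had 26.3, 26.4 and 28.8 FPKM in knockout libraries, against 73.7, 82.2 and 76.4 FPKM in control libraries. The groups lay far apart, and Slc2a1 fell by 1.48 ± 0.07 on the log2 scale (adjusted p = 9.37e-07). Here and below, ± is the SE of a difference between groups of 3 libraries. Slc2a3, the high-affinity carrier GLUT3, stood at 0.31, 0.20 and 0.15 FPKM in knockout, against 0.03, 0.03 and 0 FPKM in control, and Slc2a4, the insulin-responsive carrier GLUT4, at 0.09 to 0.14 FPKM in knockout and 0.02 to 0.06 FPKM in control. Both were below the filter and were not tested, and 24.7% of the 6939 genes below it also had groups that did not overlap. Slc2a1 made up 98.5% to 99.0% of the summed level of these 3 carriers in knockout and 99.9% to 99.97% in control. Other hexose carriers lay outside this sum, the highest being Slc2a6 with a mean of 10.7 FPKM in knockout and 12.01 FPKM in control.

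The hexokinases, which phosphorylate glucose, fell together. Hk1, the ubiquitous isozyme, had 36.01, 36.8 and 38.1 FPKM in knockout, against 67.1, 71.7 and 67.5 FPKM in control. It fell by 0.88 ± 0.06 (adjusted p = 7.62e-06). Hk2, the inducible isozyme of muscle and growing cells, had 9.45, 7.17 and 8.56 FPKM in knockout, against 16.6, 17.9 and 16.6 FPKM in control, and fell by 0.95 ± 0.10 (adjusted p = 1.14e-04). The share of Hk2 in the summed hexokinase level was 20.8%, 16.3% and 18.3% in knockout, against 19.8%, 19.96% and 19.8% in control. These shares overlapped (exact permutation test, p = 0.40). Gpi1, which turns glucose 6-phosphate into fructose 6-phosphate, had 145, 170 and 155 FPKM in knockout, against 316, 324 and 312 FPKM in control, and fell by 1.02 ± 0.07.

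Phosphofructokinase, the committed step of glycolysis, is built from liver (Pfkl), platelet (Pfkp) and muscle (Pfkm) type subunits. Pfkl had 23.8, 26.4 and 23.5 FPKM in knockout, against 79.8, 85.7 and 82.2 FPKM in control. It showed the second-largest fall of the 32 genes, at 1.71 ± 0.06 (adjusted p = 3.81e-07). Pfkp had 22.4, 25.1 and 24.4 FPKM in knockout, against 65.0, 70.1 and 61.1 FPKM in control, and fell by 1.41 ± 0.07, although its exons overlap those of Pitrm1 on the opposite strand (mean 62.6 FPKM) and the use of strand in counting was not stated. Pfkm had 16.3, 19.3 and 17.8 FPKM in knockout, against 20.4, 20.6 and 20.7 FPKM in control. Its difference of -0.20 ± 0.07 (adjusted p = 0.0459) lost the threshold under 11 of 16 alternative settings, among them leaving out any 1 control library or knockout replicate 1 or 3 (adjusted p 0.109 to 0.133). The mean of Pfkm was 86.6% of control, against 29.8% for Pfkl and 36.6% for Pfkp. Exons of Pfkm also overlap those of another gene on the opposite strand, Senp1 (mean 9.82 FPKM).

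The subunits, unequal in control cells, were closer to each other in level in knockout cells. Pfkl gave 38.1%, 37.3% and 35.8% of the summed phosphofructokinase level in knockout, against 48.3%, 48.6% and 50.1% in control. Pfkm gave 26.1%, 27.3% and 27.1% in knockout, against 12.3%, 11.7% and 12.6% in control. Neither share overlapped between groups, and each exact permutation test gave p = 0.10, the smallest value that 3 against 3 libraries allow. The share of Pfkp differed by -2.66 points, at 35.8%, 35.4% and 37.1% in knockout and 39.4%, 39.7% and 37.2% in control. Across all steps 19 isozyme shares were tested in this way, of which 17 gave an exact p of 0.10 (adjusted p = 0.112), so none passed after adjustment.

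The bifunctional PFKFB enzymes set the level of fructose 2,6-bisphosphate, the main activator of phosphofructokinase, and all 4 were low, between 1.83 and 4.78 FPKM. Pfkfb3, the isozyme with the strongest kinase activity and the highest mean here, had 3.90, 2.96 and 3.62 FPKM in knockout, against 4.33, 4.78 and 4.22 FPKM in control. Pfkfb1, the liver and muscle isozyme, had 1.83, 2.44 and 2.18 FPKM in knockout, against 3.52, 3.86 and 4.31 FPKM in control, and fell by 0.64 ± 0.10 (adjusted p = 0.00116), with exons that overlap the more abundant Apex2 (mean 11.7 FPKM) on the opposite strand. Pfkfb2, the heart isozyme, moved the other way, with 3.74, 2.57 and 3.66 FPKM in knockout, against 2.12, 2.15 and 2.09 FPKM in control, and rose by 0.46 ± 0.11 (adjusted p = 0.0117). No groups of these 3 isozymes overlapped. The calls of Pfkfb3 (-0.28, adjusted p = 0.0419) and of the testis and hypoxia-inducible isozyme Pfkfb4 (0.25, adjusted p = 0.0333) were lost under 9 and 8 alternatives, for both among them the leaving out of any 1 control library or of knockout replicate 3 (adjusted p 0.0776 to 0.145 for Pfkfb3 and 0.0598 to 0.130 for Pfkfb4). Their summed level was 92.7% of control, and its parts shifted: Pfkfb2 gave 23.8% to 31.2% of it in knockout and 16.6% to 17.4% in control, whereas Pfkfb1 gave 15.3% to 22.6% in knockout and 28.9% to 34.5% in control.

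**Figure D2:**
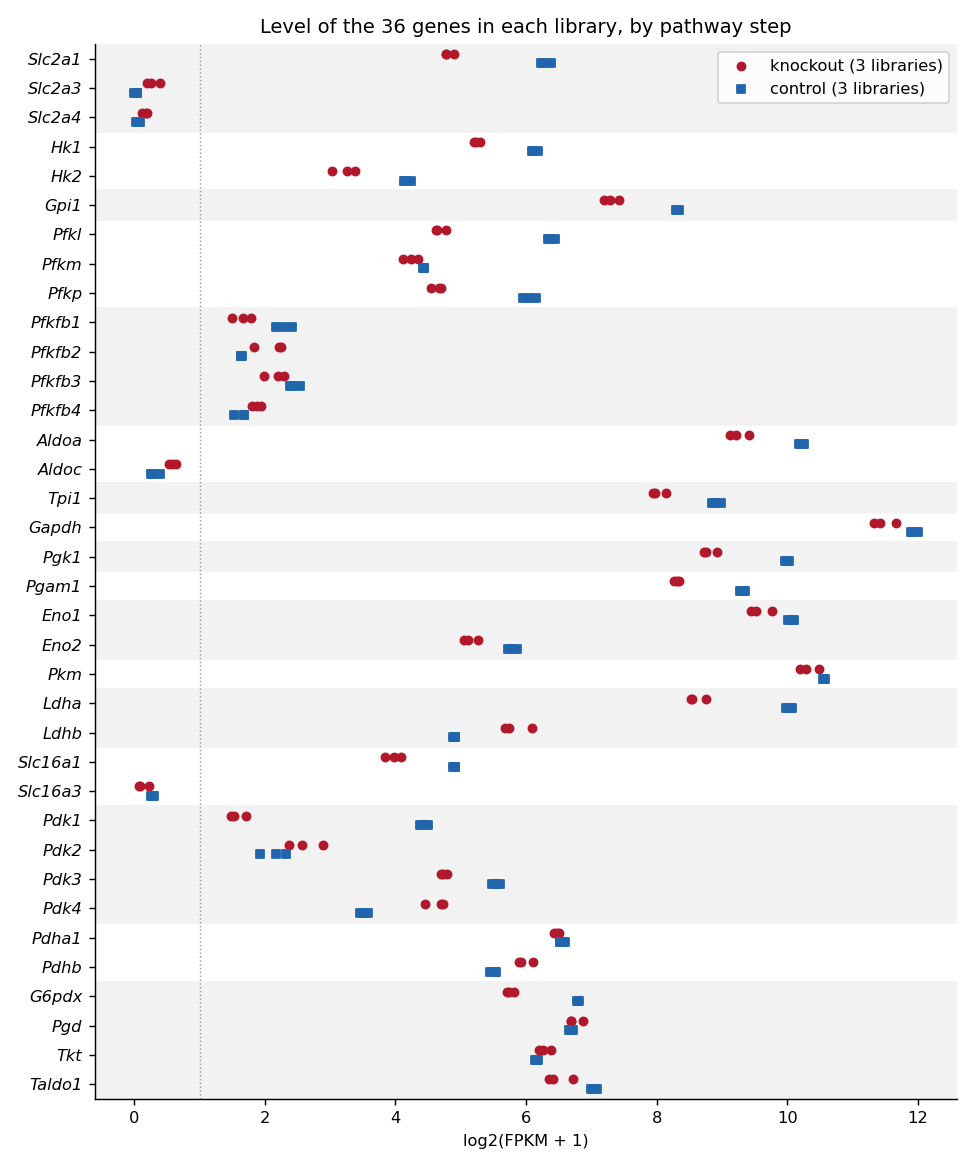
Level of the 36 genes in each library as log2(FPKM + 1), with 1 point per library (knockout circles, control squares) and genes in pathway order. The dotted line marks 1 FPKM, and Slc2a3, Slc2a4, Aldoc and Slc16a3 lie left of it in every library. The knockout circles lie left of the control squares from Slc2a1 to Ldha for all but Pfkfb2 and Pfkfb4 among the tested genes, and to the right for Ldhb, Pdk2, Pdk4, Pdhb and Tkt.

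The abundant enzymes of the lower pathway were lower in knockout cells as well. Aldoa, the muscle and general aldolase, had 555, 678 and 590.4 FPKM in knockout, against 1159, 1219 and 1197 FPKM in control, and fell by 0.98 ± 0.10. Aldoc, the brain isozyme, was below the filter at 0.44 to 0.55 FPKM in knockout and 0.19 to 0.31 FPKM in control. Tpi1, which interconverts the triose phosphates, had 244, 282 and 250.1 FPKM in knockout, against 461, 507 and 473 FPKM in control, and fell by 0.89 ± 0.08. In neither Aldoa nor Tpi1 did the groups come near each other.

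Gapdh, which makes the first NADH of the pathway and is often used as a reference gene, had 2564, 3229 and 2746 FPKM in knockout, against 3787, 4108 and 3881 FPKM in control. It ranked 7th of 18051 genes by mean level in knockout and 2nd in control. Its fall of 0.47 ± 0.14 (adjusted p = 0.0231) was lost with no filter on low values and in 5 of the 6 fits that left out 1 library, the exception being knockout replicate 2 (adjusted p of 0.0751 to 0.105 where lost). Gapdh and several other abundant glycolytic genes have processed pseudogenes in the mouse genome, and how shared reads were divided is not stated. Pgk1, the first enzyme to yield ATP, had 432, 482 and 420.2 FPKM in knockout, against 998, 1041 and 1017 FPKM in control, and fell by 1.20 ± 0.08. Pgam1, the phosphoglycerate mutase of most tissues, had 308, 322 and 317 FPKM in knockout, against 619, 656 and 641 FPKM in control, and fell by 1.02 ± 0.07. The mean of Pgk1 was 43.7% and that of Pgam1 was 49.4% of the control mean, with no overlap in either.

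The last steps before pyruvate, enolase and pyruvate kinase, had totals of 71.3% and 84.7% of control. Eno1, the general enolase, had 695, 868 and 736 FPKM in knockout, against 1036, 1099 and 1070.2 FPKM in control, and fell by 0.49 ± 0.11 (adjusted p = 0.0061). A near-identical retrotransposed copy, Eno1b, can share its reads, and the ratio of Eno1b to Eno1 was 0.378 in knockout and 0.379 in control. Eno2, the neuronal isozyme, had 32.03, 37.3 and 33.4 FPKM in knockout, against 51.7, 54.3 and 57.2 FPKM in control, and fell by 0.65 ± 0.07. In neither enolase did the groups overlap. Pkm, whose gene yields the M1 and M2 forms of pyruvate kinase by splicing, had 1172, 1428 and 1241 FPKM in knockout, against 1500.1, 1534 and 1503 FPKM in control. All knockout values of Pkm were lower, but its difference of -0.24 ± 0.11 did not pass (adjusted p = 0.0921), and it passed without knockout replicate 2, its highest knockout library (-0.33, adjusted p = 1.17e-04). With no library left out, Pkm passed under TPM scaling (limma adjusted p = 0.00649), quantile normalization (adjusted p = 0.00257) and no trend (adjusted p = 0.0411). Gene-level values do not separate the M1 and M2 forms.

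Summed by step, the totals in knockout ranged from 35.5% of control for glucose transport (Slc2a1, Slc2a3 and Slc2a4 only) and 39.4% for phosphofructokinase to 84.7% for pyruvate kinase and 92.7% for the PFKFB enzymes. The single-gene steps from triose phosphate isomerase to phosphoglycerate mutase stood at 53.8%, 72.5%, 43.7% and 49.4% in pathway order. Lactate dehydrogenase stood at 41.6%, monocarboxylate transport (Slc16a1 and Slc16a3 only) at 50.9% and the pentose phosphate enzymes at 79.2%. Pyruvate dehydrogenase, at 109%, was the only step above its control total.

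**Figure D3:**
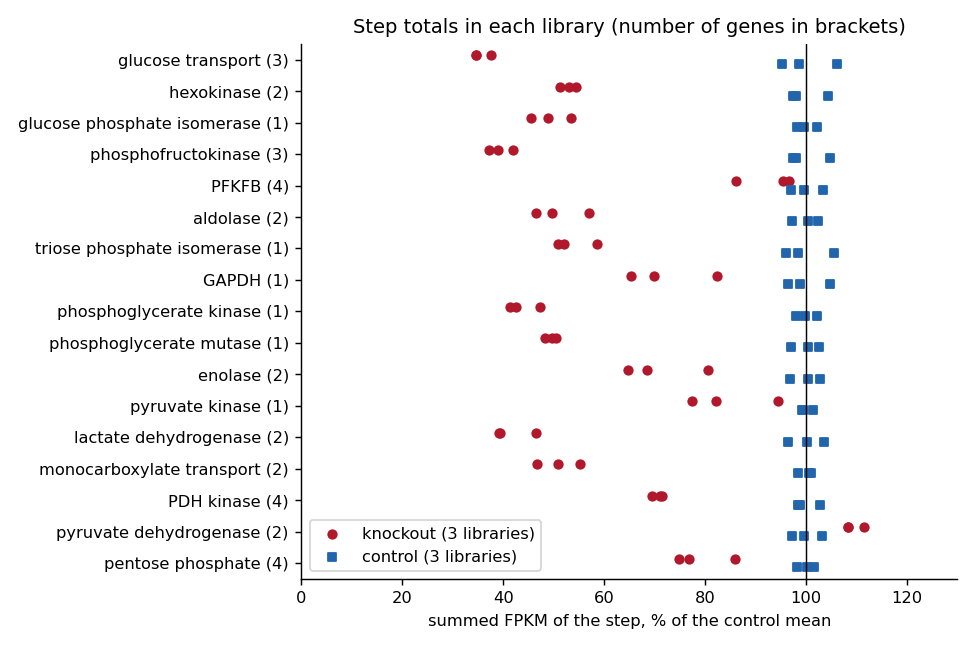
Summed FPKM of each step in each library as a percentage of the control mean of that step (black line at 100), with the number of genes in brackets. Knockout circles lie left of the control squares in every step but pyruvate dehydrogenase, and the PFKFB step, at 92.7% on average, lies nearest to them among the steps left of the line.

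The lactate dehydrogenase subunits moved in opposite directions. Ldha, whose muscle-type subunit favours the making of lactate, had 370.2, 430.4 and 368 FPKM in knockout, against 1005, 1081 and 1044 FPKM in control. It fell by 1.42 ± 0.09 (adjusted p = 7.66e-06), with its rank among all genes at 190 in knockout and 66 in control. Ldhb, whose heart-type subunit favours the use of lactate, had 49.9, 67.1 and 52.4 FPKM in knockout, against 29.1, 28.3 and 29.2 FPKM in control, and rose by 0.93 ± 0.11 (adjusted p = 2.09e-04). Neither gene's groups overlapped. Ldhb thus gave 11.9%, 13.5% and 12.4% of the summed subunit level in knockout, against 2.81%, 2.55% and 2.72% in control (exact permutation test, p = 0.10). Ldha remained the more abundant subunit in every library.

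Slc16a1, which encodes the lactate carrier MCT1, had 15.98, 13.4 and 14.7 FPKM in knockout, against 28.9, 29.1 and 28.4 FPKM in control, and fell by 0.93 ± 0.07 (adjusted p = 2.40e-05). Slc16a3, the hypoxia-inducible exporter MCT4, stood at 0.05, 0.17 and 0.06 FPKM in knockout, against 0.24, 0.22 and 0.19 FPKM in control, below the filter. Its share of the carrier pair was 0.31% to 1.25% in knockout and 0.67% to 0.82% in control and overlapped between groups (exact permutation test, p = 0.90). Slc16a7, of the same family but outside this pair, had 1.33 to 1.47 FPKM in knockout, against 0.03 to 0.12 FPKM in control. It was also below the filter and was not tested.

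The pyruvate dehydrogenase kinases showed the largest changes in both directions. Pdk1, a kinase that hypoxia-inducible factor is known to induce, had 2.28, 1.79 and 1.89 FPKM in knockout, against 20.6, 21.5 and 19.7 FPKM in control. It fell by 2.86 ± 0.08 (adjusted p = 9.08e-08) to 9.65% of its control mean. Pdk4, the kinase induced by fasting and fatty acid use, had 25.6, 20.9 and 24.99 FPKM in knockout, against 10.98, 10.5 and 10.03 FPKM in control, and rose by 1.11 ± 0.09 (adjusted p = 2.54e-05). Pdk3, another kinase of the family, had 24.97, 26.6 and 25.5 FPKM in knockout, against 43.6, 47.7 and 45.7 FPKM in control, and fell by 0.81 ± 0.06. The groups of these 3 genes were far apart. Pdk2, the most widely expressed kinase, had 4.18, 6.43 and 4.96 FPKM in knockout, against 4.03, 2.79 and 3.49 FPKM in control. Its closest values nearly touched, and its rise of 0.47 ± 0.15 (adjusted p = 0.0322) was lost with no filter and when knockout replicate 3, control replicate 2 or control replicate 3 was left out (adjusted p 0.065 to 0.119).

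The makeup of the kinases differed between the groups, while their total in knockout was 70.7% of control. Pdk4 gave 44.9%, 37.5% and 43.6% of the summed level in knockout, against 13.9%, 12.7% and 12.7% in control. Pdk1 gave 3.998%, 3.21% and 3.30% in knockout, against 26.0%, 26.1% and 24.9% in control. The ratio of Pdk4 to Pdk1 was 11.2, 11.7 and 13.2 in knockout, against 0.533, 0.487 and 0.510 in control. Pdk3, the leading kinase in control libraries at 55.1% to 58.0%, gave 43.8% to 47.8% in knockout, and Pdk2 gave 7.33% to 11.5% in knockout and 3.38% to 5.09% in control. None of these shares overlapped between groups, each at the smallest exact p of 0.10.

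**Figure D4:**
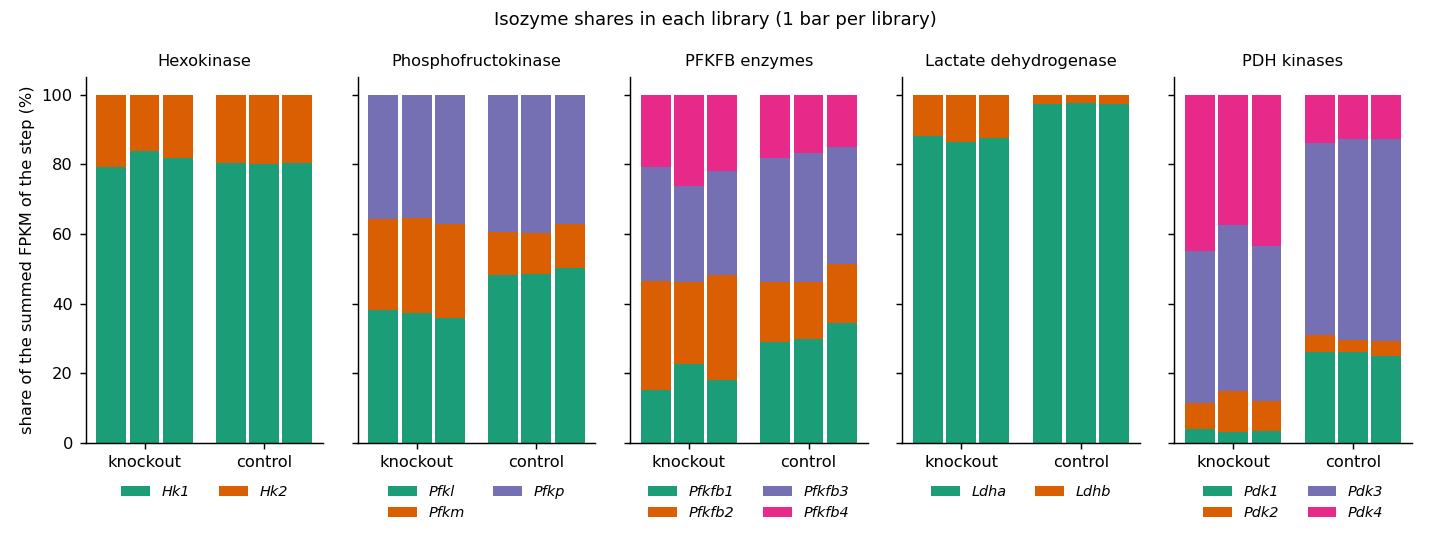
Share of each isozyme in the summed FPKM of its step, in percent, with 1 bar per library and knockout left of control in each panel. Ldhb takes 11.9% to 13.5% of lactate dehydrogenase in knockout and 2.55% to 2.81% in control, and Pdk4 takes 37.5% to 44.9% of the kinases in knockout and 12.7% to 13.9% in control, while the Hk2 shares overlap.

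The enzyme these kinases act on differed less in level. Pdha1, the catalytic alpha subunit that carries the phosphorylation sites, had 90.0, 84.9 and 88.1 FPKM in knockout, against 90.3, 91.0 and 95.9 FPKM in control, and did not pass (-0.07 ± 0.06, adjusted p = 0.307). Pdhb, the beta subunit, had 58.1, 67.6 and 59.9 FPKM in knockout, against 42.5, 45.4 and 45.2 FPKM in control, and rose by 0.47 ± 0.07 (adjusted p = 0.0010). Both lie on chromosomes whose genes were shifted as a whole: the median difference was -0.36 on the X chromosome, which carries Pdha1, and 0.41 on chromosome 14, which carries Pdhb. With each chromosome's median set to 0, Pdha1 was higher by 0.28 (adjusted p = 0.00501) and Pdhb lost its call (0.06, adjusted p = 0.569).

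Of the pentose phosphate enzymes, 2 fell and 2 did not pass. G6pdx, which encodes the glucose 6-phosphate dehydrogenase that commits glucose to NADPH production, had 52.5, 51.0 and 55.0 FPKM in knockout, against 109, 109.5 and 112 FPKM in control, and fell by 1.04 ± 0.05 (adjusted p = 2.40e-06). Pgd, the next dehydrogenase, had 102, 116 and 102 FPKM in knockout, against 99.5, 105 and 101 FPKM in control. Its groups overlapped and it did not pass (0.07, adjusted p = 0.434). Of the enzymes that return sugars to glycolysis, Taldo1 (transaldolase) had 80.6, 105 and 84.1 FPKM in knockout, against 127, 129 and 134 FPKM in control, and fell by 0.54 ± 0.10 (adjusted p = 0.00271), with no overlap between groups. Tkt (transketolase) had 72.7, 82.4 and 75.3 FPKM in knockout, against 69.4, 70.7 and 71.8 FPKM in control, and did not pass (0.12, adjusted p = 0.160). Tkt also lies on chromosome 14, and with the chromosome medians set to 0 it was lower by 0.30 (adjusted p = 0.00671). Taldo1 lies on chromosome 7 (median -0.25) and fell by 0.29 beyond that median. Its call was kept under every alternative (largest limma adjusted p = 0.0498).

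The differences of more than 1 on the log2 scale kept their direction and call beyond the chromosome medians, but some were then smaller than 1. Pgk1, Pdk3 and G6pdx on the X chromosome fell by 0.84, 0.45 and 0.69 beyond the median of their chromosome, and Pfkfb1 by 0.28, where its call was lost (adjusted p = 0.0545). Gpi1, Aldoa and Ldha on chromosome 7, where the median was -0.25, fell by 0.77, 0.73 and 1.17 beyond it. Pgam1 on chromosome 19, where the median was -0.22, fell by 0.80 beyond it. Pdk4 and Ldhb rose by 1.01 and 0.83 beyond the median of chromosome 6. With every chromosome centred, 20 of the genes passed as lower and 5 as higher. These were not all the same genes as before. Tkt (lower) and Pdha1 (higher) were added, whereas Pfkm, Pfkfb1, Pfkfb3, Pfkfb4 and Pdhb no longer passed.

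Other genes of the same pathways were taken from lists of neighbouring functions, and their counts stand beside the 23.6% of all tested genes that rose and the 26.7% that fell. Of 25 other glycolysis and pyruvate genes, 16 were tested, of which 8 rose and 4 fell (median 0.25). Pgam2, the muscle phosphoglycerate mutase, rose by 0.79, and Bpgm, which makes 2,3-bisphosphoglycerate, rose by 0.58. Txnip, a protein that lowers glucose uptake, fell by 0.73 and the pyruvate dehydrogenase phosphatase Pdp1 by 0.41. Of 7 tested hexose and monocarboxylate transporters, 2 rose and 2 fell: the facilitative carrier Slc2a10 rose by 0.72, the aromatic amino acid carrier Slc16a10 rose by 0.41, and Emb, a chaperone of monocarboxylate carriers, fell by 0.29. Emb no longer passed when knockout replicate 3 or control replicate 1 was left out (adjusted p = 0.0595 and 0.0693). Of 6 other pentose phosphate genes, 3 rose, among them the lactonase Pgls (0.57) and the isomerase Rpia (0.40), and Prps2 and Prps1, which make phosphoribosyl pyrophosphate, fell by 0.65 and 0.16. The Prps1 call was lost in every fit without 1 library other than knockout replicate 2 (adjusted p 0.0587 to 0.185), and it was higher by 0.19 (adjusted p = 0.0293) with the chromosome medians set to 0.

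Of 13 tested glycogen genes, 6 fell and 1 rose (median -0.15). Gys1, the glycogen synthase of most tissues, had 14.4, 14.7 and 14.4 FPKM in knockout, against 39.0, 44.7 and 39.5 FPKM in control, and fell by 1.44. Pgm1, which links glucose 6-phosphate to glycogen, fell by 1.19, and the phosphorylase Pygb rose by 0.31. Of 20 citric acid cycle genes, 12 did not pass, 6 rose and 2 fell (median 0.11). Mdh2 (mitochondrial malate dehydrogenase) rose by 0.46 and Aco1 (cytosolic aconitase) fell by 0.40, while the rise of the succinyl-CoA ligase subunit Sucla2 (0.50) and the fall of Idh2 (0.44) were lost with the chromosome medians set to 0.

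The list for the hypoxia-inducible factor pathway, which also held Myc, had 10 tested genes, of which 6 fell and Myc alone rose (median -0.38). Hif1a, its oxygen-sensitive subunit, had 78.7, 47.1 and 67.7 FPKM in knockout, against 138, 125 and 126 FPKM in control, and fell by 1.03 ± 0.17 (adjusted p = 0.00142). Egln3, a prolyl hydroxylase that marks the subunit for destruction and is itself a known target of the pathway, had 4.85, 5.22 and 4.44 FPKM in knockout, against 37.3, 41.2 and 38.3 FPKM in control, and fell by 2.77. Myc, which also drives glycolytic genes, had 58.7, 56.0 and 55.9 FPKM in knockout, against 34.6, 39.5 and 37.2 FPKM in control, and rose by 0.60. No groups of these 3 genes overlapped, so levels of a pair of known regulators of glycolysis moved in opposite directions. The marker sums above and those of muscle (3.26 to 4.26 FPKM in knockout, 1.51 to 1.69 FPKM in control) and neural genes (11.4 to 14.7 FPKM in knockout, 2.78 to 2.92 FPKM in control) moved with the groups too, and their part in these results was not tested. Of these 10 genes, Acta1 and Map2 carry the higher sums in knockout, whereas Des and Mb were lower there, at 0.08 to 0.10 and 0 to 0.05 FPKM in knockout, against 1.05 to 1.16 and 0.10 to 0.33 FPKM in control.

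**Figure D5:**
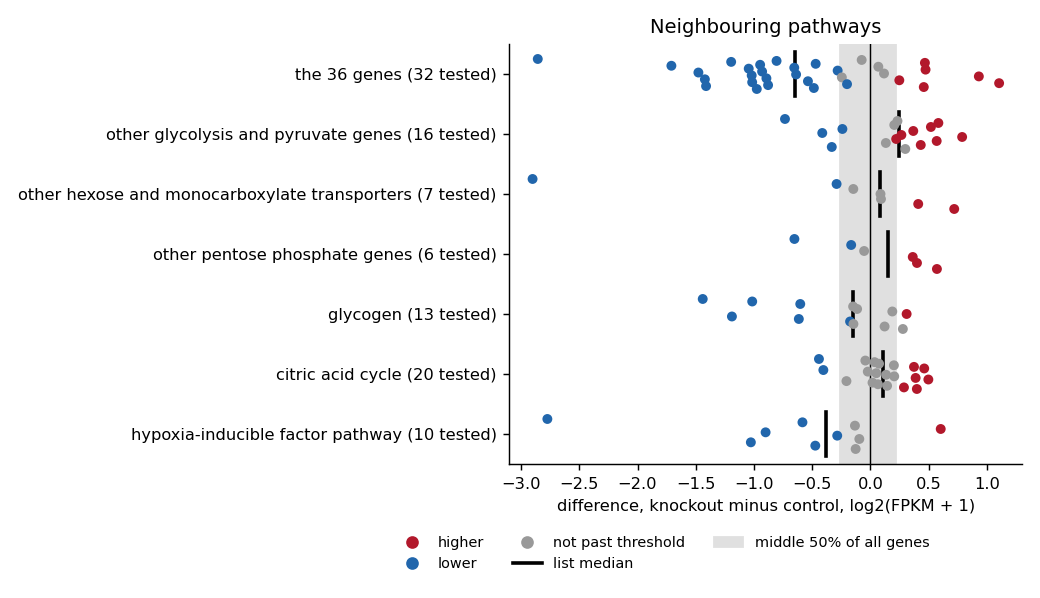
Difference between knockout and control, on the log2(FPKM + 1) scale, for the tested genes of the 36 and of 6 lists of neighbouring pathways, with 1 point per gene. Bars mark list medians, and the grey band holds the middle 50% of all tested genes, from -0.26 to 0.22. The median of the 36 genes, at -0.65, lies left of every other list, of which the hypoxia-inducible factor pathway, at -0.38, is nearest.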

How the data were processed

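Total RNA (TRIZOL extraction) was sequenced on the DNBSEQ system. The mm10 genome (GRCm38), Bowtie2 2.2.5 and HISAT2 2.0.4 are listed in the submitters' processing notes, and the study's methods name RSEM for gene levels. The deposited values were FPKM per gene, computed by the authors and given to 2 decimals. No annotation, filter or strand setting is given in the sources used here. The authors' group means were not used. A search of low values for a step of single reads found no clear one, so no counting intervals were given, and a value of 0 may be a failed estimate.

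FPKM was converted to log2(FPKM + 1), and genes with a mean of at least 1 FPKM were compared between 3 knockout and 3 control libraries with limma 3.58.1 in R 4.3.3 (empirical Bayes with a mean-variance trend, Benjamini-Hochberg over 11112 genes, threshold 0.05). The procedure was also run on simulated data with independent noise and few changed genes. That setting differs from these data, where 50.2% of tested genes passed and whole chromosomes were shifted. Isozyme shares of the summed FPKM of a step were compared with two-sided exact permutation tests (SciPy 1.17.1). Promoters came from RefSeq, GRCm38.p6, leaving out the bases after the start. The 36 genes and the lists were chosen with earlier results of these data known. Library values were printed for the most abundant and the most changed member of each step and for isozyme comparisons, and of each neighbouring list up to 2 rises and 2 falls past the threshold were named, except for an item that is not reported here. Gys1, Hif1a, Egln3 and Myc were also given by library. Alternatives were pseudocounts of 0.1 and 0.5, no filter, a mean of at least 5 FPKM, TPM, median-of-ratios and quantile scaling, no trend, the replicate number as a block, centring by chromosome and leaving out each library. For shares they were quantile scaling, log2 ratios and leaving out each library.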

Additional observations from a re-analysis of the deposited data

How the results depend on the processing

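Over 16 alternatives, 461 of 507 values of the 32 tested genes kept their direction and their side of the threshold, 40 lost the threshold, 4 gained it in the same direction (all Pkm) and 2, not past the threshold at first, passed with the opposite sign (Pdha1 and Tkt); the cause was not tested. Gapdh, Pdhb, Pdk2, Pfkfb1, Pfkfb3, Pfkfb4 and Pfkm lost it under at least 1 alternative. With a mean of at least 5 FPKM, 3 genes passed as higher in place of 6, because Pfkfb2, Pfkfb4 and Pdk2 lie under that filter, as does S100a8, which then has no value. With chromosomes centred, Pdha1 (0.28), Tkt (-0.30) and, of the neighbouring lists, Prps1 (0.19) changed sign. The share of Slc16a3 was lower by 0.09 points in knockout but changed sign as a log2 ratio (0.77) and without knockout replicate 1 (0.0848 points) or 3 (0.0372 points), within a range of -0.387 to 0.0848 points over the libraries left out. With no filter, Slc2a3, Slc2a4 and Aldoc passed as higher and Slc16a3 as lower.

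With 1 library left out at a time, 4283 to 7391 genes and 23 to 29 of the 32 passed (19 to 23 lower, 4 to 6 higher). With the replicate number as a block, 5527 genes and 25 of the 32 passed (20 lower, 5 higher). Same-numbered libraries deviated together at r = 0.327, 0.104 and -0.214, and some libraries correlated better with another number. As these are deviations from means of 3 libraries, they cannot decide whether the numbers pair the libraries. Unknown depth, 3 libraries a group and the missing record of separate cultures limit all comparisons.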
